A study of Mus musculus with 2 samples.

Results

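The Mir99/100, let-7 and Mir125 clusters are 3 paralogous groups of microRNA genes on mouse chromosomes 9, 16 and 17. Each holds a gene of the miR-99/100 family, then a let-7 gene, then a miR-125 gene, in the same order along the plus strand. The 9 members were picked by their gene names in the GENCODE M21 annotation, and all 9 were found among the 2202 microRNA genes counted. The rule itself uses no measured value, but the members were chosen with earlier results of these data known. MicroRNA libraries were made from RNA below 30 nt of hearts of female B6CASTF1/J mice, hybrids with the wild-derived CAST strain, taken at an age of 4 days. The series has 2 libraries in 1 group, biological replicate 1 (animal 3) and biological replicate 2 (animal 4), each technical replicate 1. The labels give both hearts the same donor entry. The hearts carried no labelled treatment or allele beyond the hybrid background, and no other age, sex, strain or tissue was analysed here. The data therefore answered how much of each cluster gene was counted in neonatal heart and how far the hearts differed.

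A microRNA gene is transcribed as part of a longer RNA, from which a hairpin is cut out. The hairpin then yields mature strands from its 5p and 3p arms. A mature strand finds its target messenger RNAs mainly through its seed, bases 2 to 8. Members of the let-7 family are known as regulators of developmental timing that build up as tissues, heart muscle included, mature, and LIN28 proteins block their processing. The miR-125 family holds the vertebrate relatives of lin-4, another timing regulator, and the miR-99/100 family is known for targeting the growth kinase mTOR. The grouping of these families in 1 cluster is ancient and is shared by many animals.

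The 5p strands show what the paralogs share and where they part, so they are given first. Sequences come from the RefSeq table of build GRCm38.p6, 5′ to 3′, with the seed in capitals. For the first gene of each cluster, the miR-99/100 family, the 5p strands read as follows.
Mir100: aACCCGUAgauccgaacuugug
Mir99a: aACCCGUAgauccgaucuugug
Mir99b: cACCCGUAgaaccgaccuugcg
All 3 have the same seed. Counted from 1 at the 5′ end, miR-100 and miR-99a differ by 1 substitution, A16U, and miR-100 and miR-99b differ by 4, namely A1C, U11A, A16C and U21C.

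For the second gene, the let-7 family, the table lists no 5p strand under Mirlet7a-2. The let-7a strand below is listed under Mirlet7a-1 on chromosome 13 and occurs in the Mirlet7a-2 hairpin at bases 17 to 38.
let-7a: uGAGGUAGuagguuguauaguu
Mirlet7c-1: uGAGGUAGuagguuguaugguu
Mirlet7e: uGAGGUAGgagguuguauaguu
The let-7a and let-7c strands differ by A19G, the let-7a and let-7e strands by U9G. The surrounding hairpins differ more, as the whole hairpins show, here with the 5p strand in capitals.
Mirlet7a-2: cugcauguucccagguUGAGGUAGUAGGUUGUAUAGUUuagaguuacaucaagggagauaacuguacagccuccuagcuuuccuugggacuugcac
Mirlet7c-1: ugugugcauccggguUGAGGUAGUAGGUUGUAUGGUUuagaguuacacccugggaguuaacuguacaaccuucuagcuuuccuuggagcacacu
Mirlet7e: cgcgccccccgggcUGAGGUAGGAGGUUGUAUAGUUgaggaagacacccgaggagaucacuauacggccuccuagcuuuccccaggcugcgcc
In global alignments these hairpins were 79.4% identical for Mirlet7a-2 and Mirlet7c-1, 71.1% for Mirlet7a-2 and Mirlet7e, and 68.4% for Mirlet7c-1 and Mirlet7e.

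For the third gene, the miR-125 family, the 5p strands of Mir125b-1 and Mir125b-2 are the same molecule, while that of Mir125a is longer and departs from them after base 13.
Mir125b-1: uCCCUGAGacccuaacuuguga
Mir125b-2: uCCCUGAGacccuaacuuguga
Mir125a: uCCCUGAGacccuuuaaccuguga
What tells the miR-125b genes apart is the other arm, and their 3p strands, shown with bases 2 to 8 in capitals, differ.
Mir125b-1 3p: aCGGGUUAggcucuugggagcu
Mir125b-2 3p: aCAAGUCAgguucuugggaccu
The table held 17 mature strands and 7 hairpins for the 9 genes. The hairpins of Mir99b and Mir125b-2 are not listed there.

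The clusters differ in size by more than their hairpins do. On chromosome 9 (GRCm38) the hairpins of Mir100 (ENSMUSG00000093011.1, chr9:41531425-41531504), Mirlet7a-2 (ENSMUSG00000092770.1, chr9:41536716-41536811) and Mir125b-1 (ENSMUSG00000093354.1, chr9:41581926-41582002) span 50578 bases. All 3 lie in introns of the noncoding host gene 3110039I08Rik, of which 9 transcripts span the whole cluster and 7 hold it in 1 intron. Mir125b-1 also lies inside an exon of the sense-intronic gene Gm28119, and Mir100 is antisense to an exon of the long noncoding gene Gm48742. On chromosome 16, Mir99a (ENSMUSG00000065530.1, chr16:77598936-77599000), Mirlet7c-1 (ENSMUSG00000065557.3, chr16:77599657-77599750) and Mir125b-2 (ENSMUSG00000065472.1, chr16:77646273-77646343) span 47408 bases, within 1 intron of each of 4 transcripts of the noncoding host gene Mir99ahg. On chromosome 17, Mir99b (ENSMUSG00000065396.1, chr17:17830188-17830257), Mirlet7e (ENSMUSG00000105758.1, chr17:17830352-17830444) and Mir125a (ENSMUSG00000065479.2, chr17:17830812-17830879) are packed into 692 bases of an intron of Spaca6, a gene known for its part in the fusion of sperm and egg. The last 3 share an intron in 2 Spaca6 transcripts, and 47 bases of Mir125a lie in an exon of another. The gaps after the first hairpin are 5211, 656 and 94 bases on chromosomes 9, 16 and 17, and those after the second are 45114, 46522 and 367 bases. No other microRNA gene is annotated within 10000 bases of a member except Gm25927, which overlaps Mirlet7e on the opposite strand.

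**Figure D1:**
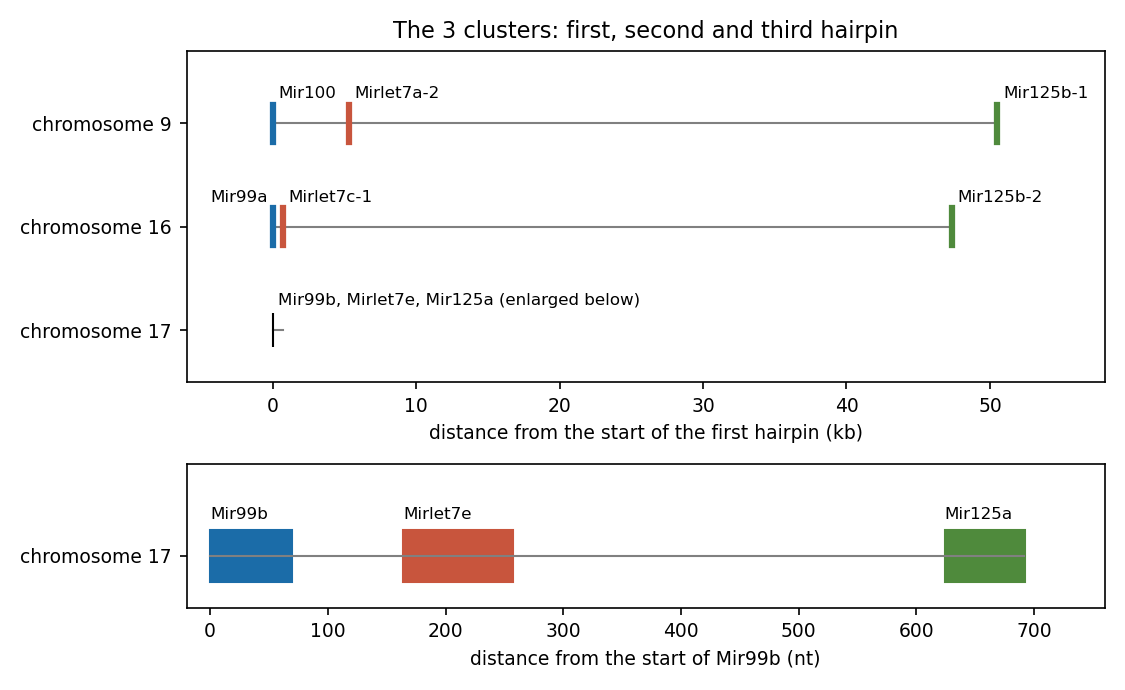
Map of the 3 clusters, with distance in kb from the start of the first hairpin (upper panel) and in nt from the start of Mir99b (lower panel), and the hairpins of the first, the second and the third gene in blue, red and green (chromosome 17 is a black mark in the upper panel). The clusters on chromosomes 9 and 16 have the third gene at a like distance, while the whole chromosome 17 cluster spans 692 bases.

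The depth over all microRNA genes was 6417302 counts for replicate 1 and 5662222 for replicate 2, and levels are given as CPM, counts per 1000000 of that total. A floor of 3 counts was 0.467 CPM in replicate 1 and 0.530 in replicate 2. Multi-mapped reads, 39.6% and 43.2% of all reads, are listed in an entry of their own. Heart muscle markers were present, among them Mir208a (10883 and 6019 CPM), Mir208b (7457 and 5640 CPM) and Mir499 (2653 and 7487 CPM), which lie in introns of cardiac myosin genes. Mir208a and Mir208b were higher in replicate 1 and Mir499 in replicate 2. Of 7 such markers 5 reached 10 counts in both libraries, and the list summed to 21023 and 19191 CPM, with a median log2 ratio of −0.77 (replicate 1 over replicate 2, scaled as below for all genes). Mir1a-1, at 9 and 19 counts, and Mir133a-2, at 12 and 2, were the 2 below that. Mir1a-2 (21.2 and 33.6 CPM) and Mir133a-1 (5.61 and 7.59 CPM) were low too, below the liver marker that follows. The liver marker Mir122 held 105 and 86.2 CPM, and 4 of 6 neuronal markers (Mir124a-1, Mir124a-2, Mir124a-3 and Mir9-1) were at 0 in both libraries. Markers numbered as copies, such as the Mir1a, Mir133a, Mir124a and Mir9 genes, were not searched for strands shared between genes. Reads of a shared strand may be among the multi-mapped reads. Low or 0 counts of these genes therefore do not show that their microRNA was scarce or absent. Blood markers summed to 1110 and 536 CPM, with Mir223 (83.1 and 148 CPM) the other way. Fibroblast markers summed to 10865 and 22304 CPM through Mir21a (5250 and 19313 CPM), while Mir214 held 5595 and 2969 CPM and Mir199a-2 20.9 and 22.8 CPM. The endothelial marker Mir126a held 51829 and 73011 CPM, and the smooth muscle markers Mir143 and Mir145a summed to 47055 and 60331 CPM. What these markers had to do with the members' values was not tested. In whole tissue, fewer cells of a type and less RNA per cell cannot be told apart.

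Together the 9 genes took 7.61% of all counts (7.59 to 7.63, exact Clopper-Pearson at 95%) in the first heart, replicate 1. In replicate 2 their part was 6.72% (6.70 to 6.74), and over both libraries it was 7.17% ± 0.632 (SD, n = 2). This is a summed level of 71667 CPM, which was 36669 CPM when all multi-mapped reads joined the total. Intervals here and below cover counting error only. The first genes of the clusters took 72.8% and 73.8% of these counts, the let-7 genes 15.4% and 15.1%, and the miR-125 genes 11.8% and 11.1%. By cluster, chromosome 16 held 3.52% ± 0.258 of all counts, chromosome 17 held 3.22% ± 0.922 and chromosome 9 held 0.419% ± 0.0328. Chromosome 16 led in replicate 2 (37056 against 25720 CPM) and chromosome 17 in replicate 1 (38762 against 33414 CPM), so the order of these clusters was not the same in both hearts. The chromosome 9 cluster was the lowest in both, at 3959 and 4422 CPM. Multi-mapped reads may be missing from these sums, which therefore describe counted reads only.

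Among the miR-99/100 genes, Mir99a held 211332 counts in replicate 1 and 207202 in replicate 2, or 32932 and 36594 CPM. With 34763 ± 2590 CPM (SD, n = 2) it was the most abundant member and ranked 8th of all microRNA genes. Mir99b held 122680 and 51559 counts, or 19117 and 9106 CPM, a mean of 14111 ± 7079 CPM. Its level in replicate 1 was above that in replicate 2 by a factor of 2.10, and its coefficient of variation, 50.2%, was the highest of the 9 members. Mir100 held 21518 and 22144 counts, or 3353 and 3911 CPM (3632 ± 394 CPM, rank 44). The order Mir99a, Mir99b, Mir100 held in both libraries.

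Among the let-7 genes, Mirlet7e held 72254 and 55330 counts, or 11259 and 9772 CPM (10516 ± 1052 CPM, rank 21). Mirlet7c-1 held 1823 and 1353 counts, or 284 and 239 CPM (262 ± 31.9 CPM, rank 131). Mirlet7a-2 held 1188 and 695 counts, or 185 and 123 CPM (154 ± 44.1 CPM, rank 153), the lowest level of the 9. By counted reads both libraries of Mirlet7e lay far above those of Mirlet7c-1 and Mirlet7a-2. The latter genes each have a mature strand that another gene also holds, and whole reads of it may be missing from their counts.

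Among the miR-125 genes, Mir125a held 53811 and 38745 counts, or 8385 and 6843 CPM (7614 ± 1091 CPM, rank 28). Mir125b-1 held 2699 and 2201 counts, or 421 and 389 CPM (405 ± 22.5 CPM, rank 107). Mir125b-2 held 1272 and 1265 counts, or 198 and 223 CPM (211 ± 17.8 CPM, rank 141). Thus by counted reads the chromosome 17 gene was the highest in the second and the third place of the cluster in both libraries. In the first place it was the chromosome 16 gene. The lower genes in the second and the third place each have a mature strand that another gene also holds. Whole reads of that strand may be missing from their counts, so the order at these places describes counted reads only.

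From high to low the 9 ran Mir99a, Mir99b, Mirlet7e, Mir125a, Mir100, Mir125b-1, Mirlet7c-1, Mir125b-2 and Mirlet7a-2. A read of a microRNA covers a whole mature strand, so these counts were not divided by length. Divided by hairpin length, Mirlet7c-1 (278 CPM per 100 nt) and Mir125b-2 (297 CPM per 100 nt) changed places and the others stayed. In the deposited column that ignores strand Mirlet7e, which Gm25927 overlaps on the opposite strand, was listed at 0 counts. Only 2 of the 9 genes kept their place in the order there. The other members had the same raw counts as in the own-strand column, so their order among themselves was unchanged. Of the 8 pairs of neighbours in the order, 7 did not overlap, in that both libraries of the higher gene lay above both of the lower. The exception was Mir99b and Mirlet7e, whose ratio was 1.70 in replicate 1 and 0.932 in replicate 2. The widest step, 7.97-fold and 10.1-fold, lay between Mir100 and Mir125b-1, and it divided 5 high from 4 low members.

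**Figure D2:**
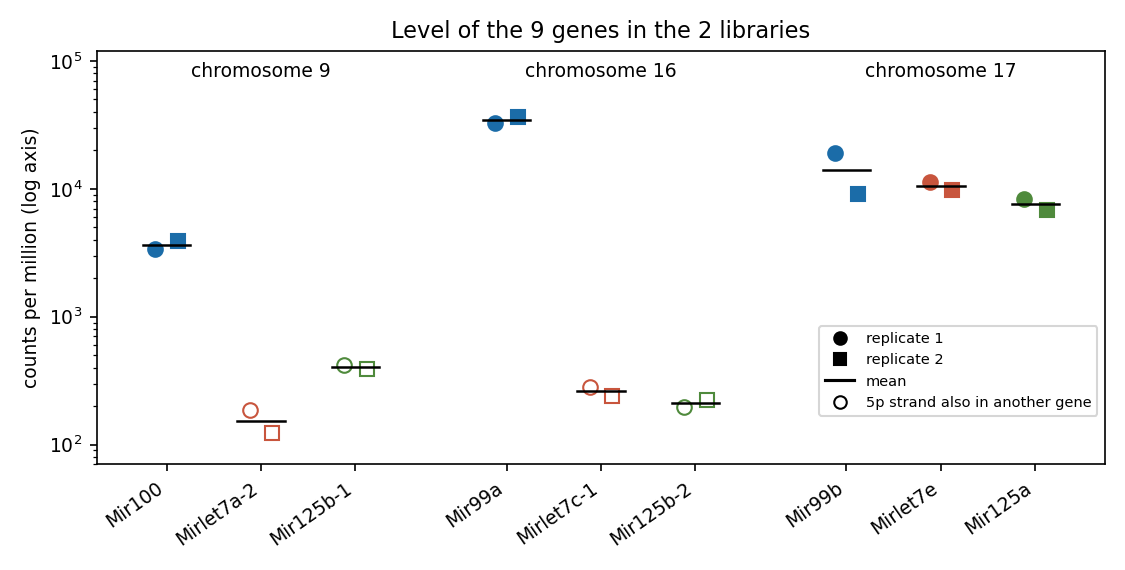
CPM (log axis) of the 9 genes by cluster, with circles for replicate 1, squares for replicate 2, a bar for their mean, and blue, red and green for the first, the second and the third gene. Open symbols mark the 4 genes whose 5p strand also occurs in another gene, and they lie between 123 and 421 CPM, against 3353 to 36594 CPM for the 5 others.

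That division is the same as a division by sequence. The 5p strands of Mirlet7a-2, Mirlet7c-1, Mir125b-1 and Mir125b-2 each occur whole in 1 other annotated microRNA gene, namely Mirlet7a-1, Mirlet7c-2, Mir125b-2 and Mir125b-1. Those of Mir100, Mir99a, Mir99b, Mirlet7e and Mir125a occur in no other, and none of the 9 genes' 3p strands does. The 4 genes with a copy held 1.43% of the members' counts in replicate 1 and 1.45% in replicate 2. A whole read of such a strand matches more than 1 gene, and how many of the multi-mapped reads came from these genes was not tested. The layout of the deposited columns keeps multi-mapped reads apart from the genes, and on that reading the counts of the 4 did not measure how much let-7a, let-7c or miR-125b the hearts held.

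Only a short part of these hairpins is shared. In Mir125b-1 the longest stretch shared with another microRNA gene was 24 nt, bases 13 to 36 of the hairpin, and it ends on the last base of the 5p strand. The same stretch takes bases 5 to 28 of Mir125b-2. For Mirlet7a-2 the stretch shared with Mirlet7a-1 was 23 nt (bases 17 to 39), and for Mirlet7c-1 and Mirlet7c-2 it was also 23 nt (bases 16 to 38), in each case the 5p strand and 1 base more. Of the windows of 22 nt that fit in a hairpin, 53 of 56 in Mir125b-1, 47 of 50 in Mir125b-2, 73 of 75 in Mirlet7a-2 and 71 of 73 in Mirlet7c-1 occurred in no other microRNA gene. In the other 5 members every window was unshared. Mir100 and Mir99a share at most 16 nt, and Mirlet7e shares at most 17 nt, with Mir7k. The counts are per hairpin, so which arm the reads of a gene came from is not known from these files.

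**Figure D3:**
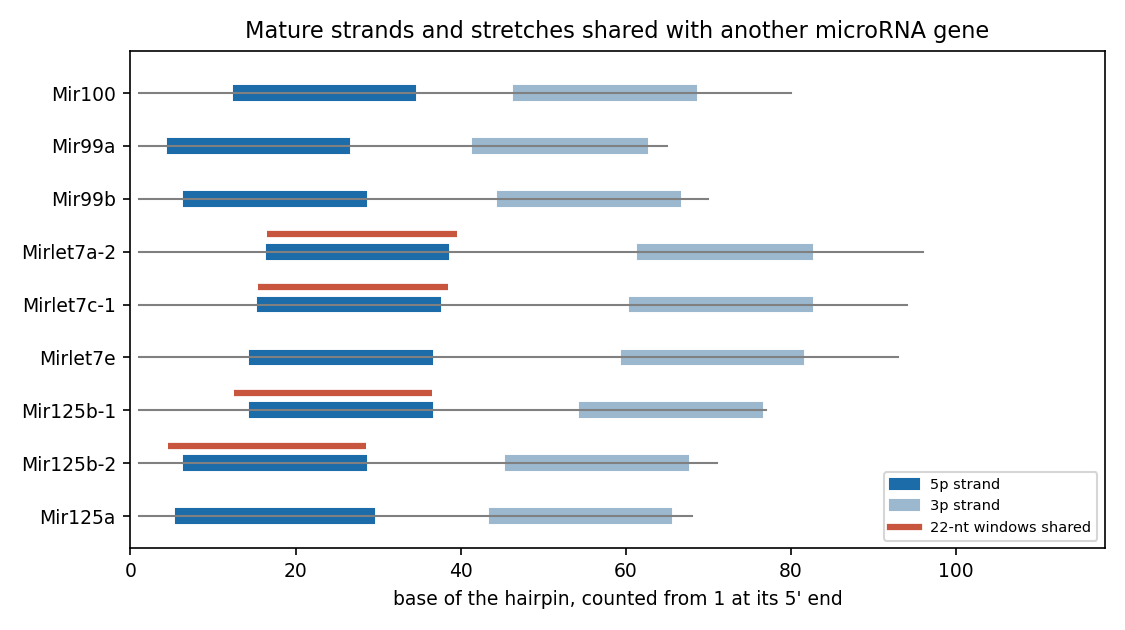
Hairpins of the 9 genes drawn to length in bases, with the 5p strand in dark blue, the 3p strand in light blue, and red lines above for the bases covered by 22-nt windows that another microRNA gene also holds. The red line spans the 5p strand in Mirlet7a-2, Mirlet7c-1, Mir125b-1 and Mir125b-2 and the 5 other hairpins have none.

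Other genes with the same seeds gave a wider view. The seed of the miR-99/100 strands, ACCCGUA, occurred in no further mature strand of the table. For the let-7 seed, GAGGUAG, 14 genes were taken, Mirlet7a-2 among them by the let-7a strand in its hairpin. The 3 cluster members held 4.58% and 4.10% of the summed counts of the 14. On the reading above, these sums lack whole reads of 5p strands that several genes share, let-7a and let-7c among them. The 4 highest of the other let-7 genes were Mirlet7i (93958 ± 597 CPM), Mirlet7g (79144 ± 2385 CPM), Mirlet7d (37891 ± 5988 CPM) and Mirlet7b (19935 ± 3204 CPM), each with a 5p strand found in 1 gene. Mirlet7e lay below all 4 in both libraries. The copies that share a 5p strand with a member were low as well, with Mirlet7a-1 at 353 and 352 CPM and Mirlet7c-2 at 481 and 455 CPM. Mirlet7f-1 and Mirlet7f-2 also share theirs, and they held 152 and 158 CPM against 3878 and 4953 CPM. Which arm these reads came from is not known, and what the shared strand had to do with the levels was not tested. Of the 10 other let-7 genes matched by name, 9 were detected, and in the comparison of the libraries described further on none of the 9 was called, against 11.2% of all genes tested, a share at which so short a list would hold few or none.

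For the miR-125 seed, CCCUGAG, 6 genes were listed, of which Mir6367 and Mir6394 had 0 counts in both libraries. The remaining gene outside the clusters was Mir351 on the X chromosome, whose 5p strand starts with the same 8 bases as miR-125.
Mir351: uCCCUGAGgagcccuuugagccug
It held 20871 and 20184 CPM, which is 2.32 and 2.71 times the sum of Mir125a, Mir125b-1 and Mir125b-2. The clusters thus held 30.1% and 27.0% of the counts with this seed. Mir125b-1 and Mir125b-2 share their 5p strand, while that of Mir351 was found in no other gene. On the reading of the columns given above, whole miR-125b reads are in no gene's count. The ratio and the share thus compare counted reads only. The miR-10 genes, which miRNA catalogues place in a family with miR-99 and miR-100, held 811 ± 160 CPM for Mir10a and 623 ± 138 CPM for Mir10b. Their log2 ratios of replicate 1 over replicate 2 were −0.74 and −0.79, and neither was called, against the same 11.2% of all genes.

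Within a cluster, the shares of the genes do not depend on how a library is scaled. On chromosome 9, Mir100 made up 84.7% of the cluster's counts in replicate 1 (84.3 to 85.1) and 88.4% in replicate 2 (88.0 to 88.8), Mir125b-1 10.6% and 8.79%, and Mirlet7a-2 4.68% and 2.78%. On chromosome 16, Mir99a made up 98.6% and 98.8%, Mirlet7c-1 0.850% and 0.645%, and Mir125b-2 0.593% and 0.603%. On chromosome 17, where no gene's 5p strand has a copy, Mir99b made up 49.3% (49.1 to 49.5) and 35.4% (35.2 to 35.6), Mirlet7e 29.1% and 38.0%, and Mir125a 21.6% and 26.6%. The first gene led in both libraries on chromosomes 9 and 16. There the second and the third gene are those whose 5p strand has a copy, and the first gene's has none. Whole reads of the copied strands may be missing from the counts, so these shares describe counted reads only. On chromosome 17 it led in replicate 1, and Mirlet7e led in replicate 2.

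**Figure D4:**
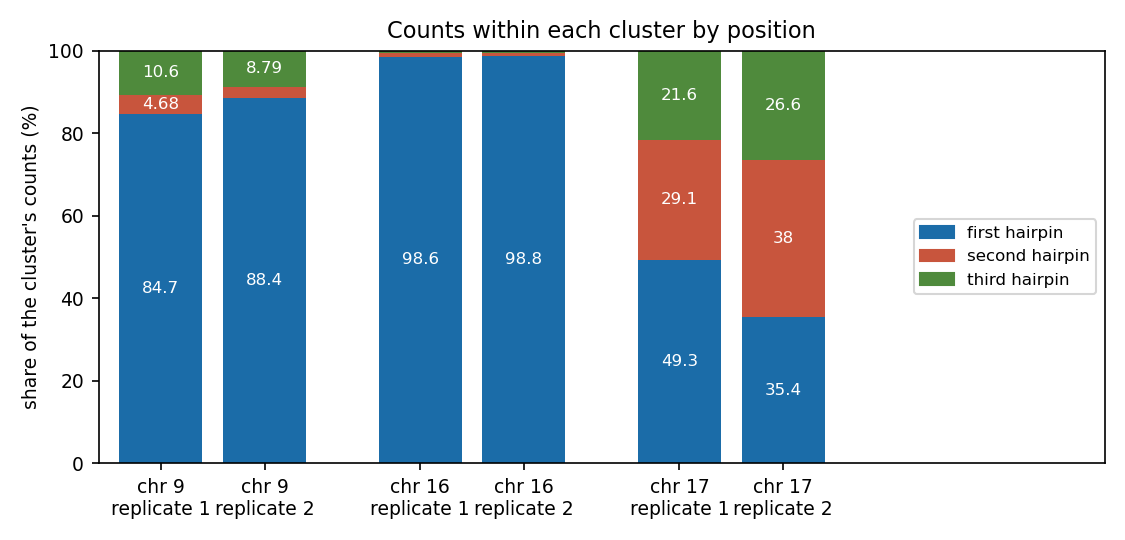
Share in percent of each cluster's counts held by the first (blue), the second (red) and the third (green) gene, 1 bar per cluster and library. The first gene fills most of the bars of chromosomes 9 and 16, while the chromosome 17 genes hold between 21.6% and 49.3% each.

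Ratios of 18 pairs were compared between the libraries, 3 within each cluster and 3 at each place, by two-sided Fisher's exact tests with Benjamini-Hochberg adjustment over the 18. These tests compare the reads of 2 libraries and not conditions, and at this depth small shifts pass: 16 pairs had an adjusted p under 0.05, yet 17 kept their order and 13 moved by less than 1.5-fold. The ratio of Mir99a to Mir125b-2 was 166 and 164, and no shift between the libraries could be detected with these counts (exact adjusted p = 0.735). That of Mirlet7e to Mirlet7c-1 was not detectably different either, with Mirlet7c-1 at 2.46% (2.35 to 2.58) and 2.39% (2.26 to 2.52) of the sum (exact adjusted p = 0.418). Mirlet7e and Mir125a, neighbours on chromosome 17, stood at 1.34 and 1.43 to 1 (exact adjusted p = 3.52e-12). Mir100 was 0.102 and 0.107 times Mir99a (exact adjusted p = 2.11e-06).

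The 5 pairs that moved by over 1.5-fold were 4 with Mir99b and 1 with Mirlet7a-2. Mir99a was 1.72 times Mir99b in replicate 1 and 4.02 times in replicate 2, and made up 63.3% (63.1 to 63.4) and 80.1% (79.9 to 80.2) of their sum. Mir100 made up 14.9% (14.7 to 15.1) and 30.0% (29.7 to 30.4) of its sum with Mir99b. Within its own cluster Mir99b was 2.28 and 1.33 times Mir125a, and 1.70 and 0.932 times Mirlet7e, the only pair of the 18 whose order changed. The remaining pair was Mir100 over Mirlet7a-2, at 18.1 and 31.9, with 1188 and 695 counts for the lower gene (exact adjusted p = 1.65e-31). These ratios do not depend on how the libraries are scaled. With 1 library per heart, a difference between hearts and one between library preparations cannot be told apart.

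Across all genes, the libraries were compared with a two-sided exact binomial test on library sizes scaled by the TMM method, which makes the bulk of genes equal between libraries. Calls needed a fold over 2 as well as an adjusted p under 0.05, and of the 491 genes tested 55 were called, or 11.2%. None of the 9 members was called, although 8 of the 9 had an unadjusted p under 0.05 in this test, whose noise is counting noise alone. At this depth small shifts pass, such as that of Mir125a with a log2 ratio of −0.04. How many of all genes had such a p, here or in the next test, was not counted. The 8 is therefore no result about the members. With edgeR's exact test, whose dispersion treats both libraries as 1 group, 4 genes were called, or 0.815%, and no member (adjusted p = 1 for each), and none of the 9 had an unadjusted p under 0.05 in it. The median log2 ratio of replicate 1 over replicate 2 was −0.13 for the members and −0.02 for all genes tested, and the median size of the ratio was 0.26 and 0.44.

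Mir99b had the largest ratio of the 9, a log2 value of 0.74, or 1.67-fold higher in replicate 1. Of the tested genes, those with low counts included, 73.1% fell short of that size. Scaling by total counts moved every log2 ratio up by 0.33 and the median of all genes from −0.02 to 0.31. Under it Mir99b was 2.10-fold higher in replicate 1 (log2 1.07) and was called, against 12.4% of all genes. With DESeq2 size factors 11.6% of all genes and no member were called, and with a fold over 1.5 under TMM 19.8% of all genes and 1 member, Mir99b. Mirlet7a-2 had a log2 ratio of 0.26 under TMM and 0.59 under total counts. Mir100 (−0.55 and −0.22), Mir99a (−0.48 and −0.15) and Mir125b-2 (−0.51 and −0.17) were higher in replicate 2 under both. The 4 others changed sign with the scaling: Mirlet7c-1 from −0.08 to 0.25, Mirlet7e from −0.13 to 0.20, Mir125b-1 from −0.22 to 0.11 and Mir125a from −0.04 to 0.29. Members higher in replicate 1 thus numbered 2 of 9 under TMM and 6 of 9 under total counts. Of all 491 genes tested, 236 were higher in replicate 1 under TMM and 329 under total counts.

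**Figure D5:**
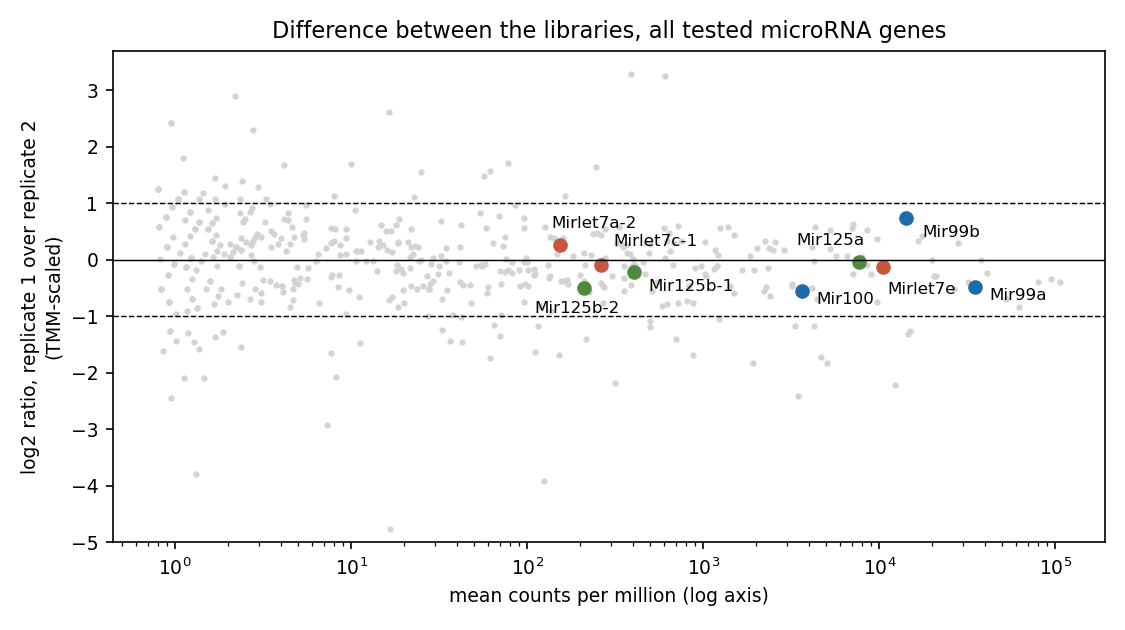
Log2 ratio of replicate 1 over replicate 2 under TMM scaling against mean CPM (log axis) for the 491 genes tested, members coloured by place in the cluster (blue for the first, red for the second, green for the third) and others grey. Dashed lines mark a fold of 2, and all 9 members lie between them, from −0.55 for Mir100 to 0.74 for Mir99b.

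Genes outside the clusters that lay nearest in level were found among 364 genes by distance over the 2 libraries on the log2(CPM + 0.5) scale. Over 2 libraries of 1 group, such likeness is one of level alone. Mir335 (31149 and 32537 CPM) lay nearest to Mir99a, Mir28a (8992 and 6884 CPM) to Mir125a, and Mir342 (3037 and 3334 CPM) to Mir100. Mir139 (20407 and 12858 CPM) lay nearest to Mir99b at a distance of 0.507, the largest of the 9, and Mir151 (9163 and 8705 CPM) to Mirlet7e. The low members had closer matches, with Mir574 next to Mirlet7c-1 and Mir669o next to Mirlet7a-2, both at 0.034, Mir450b next to Mir125b-1 at 0.088 and Mir376c next to Mir125b-2 at 0.093.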

How the data were processed

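The authors deposited raw counts per microRNA gene for each of 2 libraries, on mm10 with GENCODE M21 per the file headers. The aligner, the counter and any trimming: not given in the sources used here. The column of a gene's own strand was used; that it is the own strand was inferred from the layout, as was that no gene's count includes multi-mapped reads. All 2202 identifiers matched M21. Summary entries (4, naming no gene) were kept out of the totals. Of 14450527 and 13495259 reads, 44.4% and 42.0% were assigned, 11.9% and 11.4% unmapped and 4.12% and 3.38% outside microRNA genes.

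CPM used the own-strand total. Between libraries, genes with at least 10 counts in the sum were tested with an exact conditional binomial test on TMM-scaled sizes (factors 1.12 and 0.891, edgeR 4.0.16, R 4.3.3), with 0.5 added to counts in log2 ratios and Benjamini-Hochberg adjustment; 1 group leaves no contrast for edgeR's quasi-likelihood test. DESeq2 1.42.0 size factors were an alternative. The test was tried on simulated data with counting noise alone, so that trial does not cover spread between hearts or library preparations. Python 3.11.15, scipy 1.17.1, pandas 2.3.3, numpy 2.4.6, Biopython 1.88 and matplotlib 3.10.9 were used.

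Shared windows were searched by exact match on both strands in the hairpins of other, non-overlapping microRNA genes, since no genome sequence was used here; a planned search of the genome was replaced by this. Variants of the CAST parent were not examined. The members and lists were chosen with earlier results of these data known. All members are named, with the nearest gene in level and up to 4 genes per related list. Labels name separate animals under 1 donor entry, so the spread may be partly technical. Reads carry no stated molecular identifiers.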

Additional observations from a re-analysis of the deposited data

Results flagged for a closer look

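The opposite-strand column, which no comparison used, gave Gm25927 72254 counts in replicate 1 and 55330 in replicate 2. These equal the own-strand counts of Mirlet7e, which Gm25927 overlaps on the opposite strand, and Gm25927 had 0 own-strand counts in both libraries. All 9 cluster genes had 0 counts in that column. The Gm25927 counts are listed here only because they lie in an unused column. Gm25927 (chr17:17830343-17830459) encloses Mirlet7e (chr17:17830352-17830444), so a read on the strand of Mirlet7e is an opposite-strand read for Gm25927. The equal counts therefore give no signal apart from that of Mirlet7e.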

How the results depend on the processing

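The members' summed level, 71667 CPM, was 36669 CPM when all multi-mapped reads joined the total, 76334 CPM in the column without strand, 71627 CPM with TMM-scaled sizes, and 67199 to 76134 CPM with either replicate left out. In the column without strand Mirlet7e had 0 counts, Mir99b made up 63.3% of its cluster and Mir125a 36.7%. The number of called members, 0, was 1 (Mir99b) under scaling by total counts and 1 (Mir99b) with a fold over 1.5, where 19.8% of all genes were called; it stayed 0 with DESeq2 size factors, the column without strand, no filter, a prior count of 5 and edgeR's exact test. Scaling by total counts reversed the log2 ratios of Mirlet7c-1 (0.25), Mirlet7e (0.20), Mir125b-1 (0.11) and Mir125a (0.29), and DESeq2 size factors that of Mir125a (0.00439), as scaling shifts all genes alike. The 16 pairs past the threshold were 16 by chi-square tests and 13 without strand, where the 4 pairs with Mirlet7e, 3 of them among the 16, could not be compared. The 5 members with no shared window were 5 with windows of 20 or 18 nt and 5 in a search of all transcripts, added after seeing the data. Of the 9 members, 2 kept their place in the order in the column without strand. There Mirlet7e fell to the end and the others kept their raw counts. Without replicate 1, 7 kept their place, as Mir99b and Mirlet7e changed places. Leaving out a library leaves no comparison between libraries, and no paired analysis was possible because there is 1 group. With 1 library per heart, spread between hearts and between library preparations cannot be told apart.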
